A study of Mus musculus with 9 samples.

Results

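Genes that mark retinal ganglion cells were followed in whole retinal explants, with and without a block of glycolysis. The 10 genes were taken by symbol from the count table: the transcription factors Pou4f1, Pou4f2 and Pou4f3, the RNA-binding protein gene Rbpms, the transporter gene Slc17a6, Sncg, Thy1, and the neurofilament genes Nefl, Nefm and Nefh. They are 10 of 55487 genes in the count table, and all 10 were among the 21049 genes with enough counts to be tested. RNA-seq had been made from 9 explant libraries, whose retinas came from C57BL/6J wild-type mice on postnatal day 28. Control explants (5 libraries) had been kept for 48 h in 5 mM glucose, and 2-DG explants (4 libraries) for the same time in 5 mM glucose with 20 mM 2-deoxy-D-glucose, a glucose analog that is taken up by cells and blocks glycolysis. All explants had then spent 1 h in Krebs' Ringer medium before RNA extraction. The protocol attached to every sample names 2-DG, so the groups were taken from the sample titles and library names. The explant holds the entire retina with no sort for ganglion cells, the number of retinas in a library is not given, and 1 batch is stated for every library.

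Retinal ganglion cells are the output neurons of the retina, and their axons form the optic nerve. Dissecting a retina cuts these axons, so ganglion cells in an explant are axotomised in the control group as well as in the 2-DG group. Cut ganglion cells are known to lose markers such as Thy1 and the BRN3 factors over days, while injury genes such as Atf3, Jun and Sox11 are switched on. In bulk RNA, fewer ganglion cells and less RNA per ganglion cell cannot be told apart.

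No ganglion cell gene differed between the groups beyond the spread of the libraries. With edgeR's quasi-likelihood test and Benjamini-Hochberg adjustment over all 21049 genes, 0 of the 10 genes had an adjusted p under 0.05, as was the case for all genes (0% called), and 0 of the 10 had an unadjusted p under 0.05 (7.25% of all genes). DESeq2 (0.676% of all genes called) and limma-voom with sample quality weights (5.81%) also called 0 of the 10 after adjustment. Groups overlapped for all 10 genes (2.93% of all genes did not overlap). The fitted log2 fold change of 2-DG minus control was negative for all 10 genes, between −0.81 (Thy1) and −0.07 (Rbpms), with a median of −0.31 against −0.01 for all genes (50.8% of them lower). This direction did not hold in every setting. Without control replicate 2, 5 genes were lower and 5 higher (46.9% of all genes lower), the median was −0.01, 0 of the 10 had an unadjusted p under 0.05 (8.99% of all genes), and the groups still overlapped for all 10 (7.12% of all genes did not overlap). Leaving out 2-DG replicate 2 also gave 5 lower and 5 higher, with a median of −0.04, as did limma-voom on all 9 libraries, with a median of 0.05.

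The libraries differed far more than the groups did. The mean log2 CPM (counts relative to the TMM-scaled library size) of the 10 genes was 5.17, 5.62, 3.96, 3.44 and 3.55 in control replicates 1 to 5 and 4.20, 3.35, 5.36 and 3.69 in 2-DG replicates 1 to 4. Control replicate 1, control replicate 2 and 2-DG replicate 3 thus stood above the other libraries, and they belong to both groups. Of the 10 genes, 9, 7 and 9 were among the 3 highest values in these libraries, and 8 were among the 3 lowest in 2-DG replicate 2. Total counts were 24452355 and 14802708 in control replicates 1 and 2, 51802230 in 2-DG replicate 3 and 11318087 to 42680190 in the other 6 libraries, and the part of depth in these values was not tested.

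**Figure D1:**
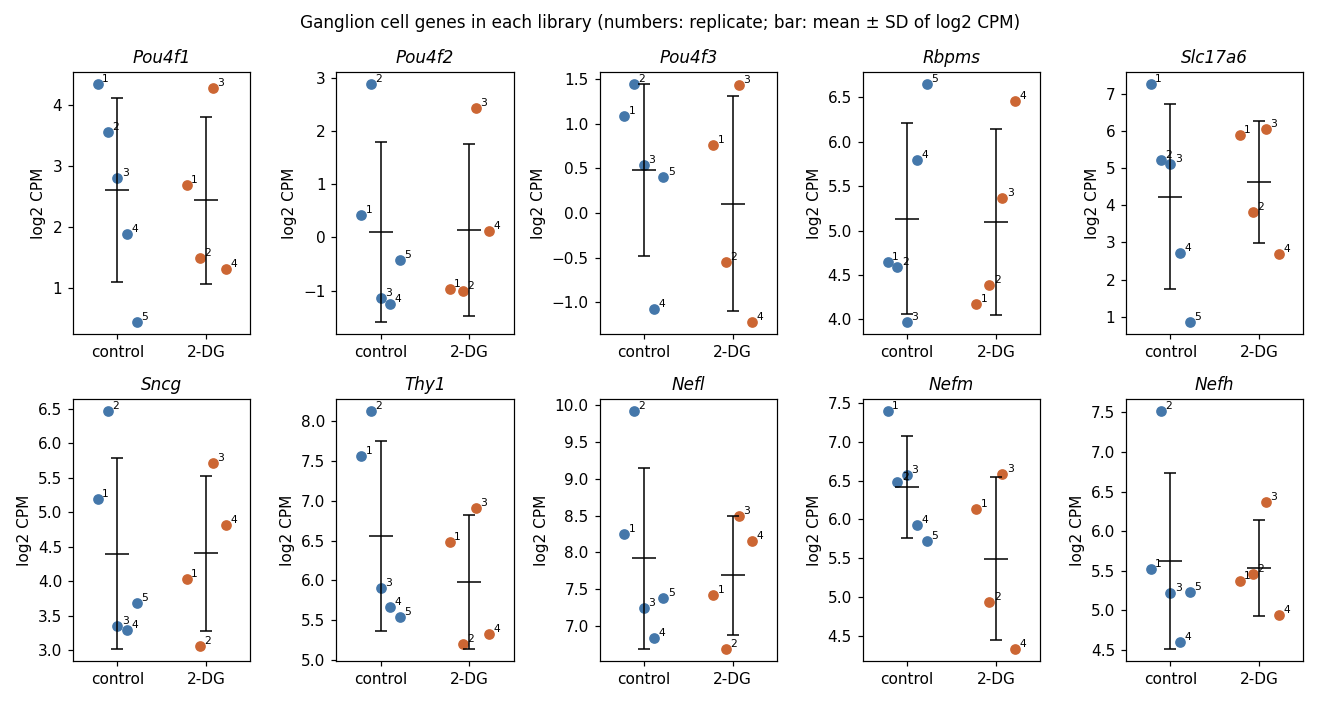
Log2 CPM (y axis, scaled separately in each panel) of the 10 ganglion cell genes in 5 control (blue) and 4 2-DG (orange) libraries, numbered by replicate, with bars for the mean ± SD of log2 CPM. The groups overlap in every panel, and control replicates 1 and 2 and 2-DG replicate 3 are high for most genes, Rbpms being the exception.

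The BRN3 transcription factors are encoded by Pou4f1 (BRN3A), Pou4f2 (BRN3B) and Pou4f3 (BRN3C), which specify ganglion cells and keep up their axons and subtype identity. Pou4f1 (chr14:104461676-104467999, minus strand, GRCm38) was at 20.3, 11.7, 6.95, 3.72 and 1.36 CPM in control replicates 1 to 5 and at 6.45, 2.80, 19.3 and 2.49 CPM in 2-DG replicates 1 to 4. One library of each group was near 20 CPM, and the values spanned 15.0-fold. The log2 fold change of Pou4f1 was −0.18 (SE 0.80, 95% interval −1.94 to 1.59, adjusted p = 0.967). It became 0.40 without control replicate 1 and −1.18 without 2-DG replicate 3.

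Pou4f2 (chr8:78433010-78436645, minus strand) was at 1.35, 7.37, 0.46, 0.42 and 0.74 CPM in the control libraries and at 0.51, 0.50, 5.39 and 1.09 CPM in the 2-DG libraries. A single library stood out in each group, control replicate 2 and 2-DG replicate 3, and the other libraries held between 0.42 and 1.35 CPM. In raw terms these low values are 5.90 to 37.9 estimated counts, above the limit of 3 counts in every library. The log2 fold change was −0.10 (SE 1.01, 95% interval −2.33 to 2.14), and it became 1.35 (SE 0.83, 95% interval −0.52 to 3.22, adjusted p = 0.741) without control replicate 2.

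Pou4f3 (chromosome 18) was at 2.12, 2.72, 1.45, 0.47 and 1.32 CPM in the control and at 1.70, 0.68, 2.69 and 0.43 CPM in the 2-DG libraries. Both groups covered almost the same range, and the log2 fold change was −0.22 (SE 0.64, 95% interval −1.63 to 1.18). The log2 ratio of Pou4f1 to Pou4f2 within a library, which does not depend on depth, was 2.50 ± 1.62 (SD, n = 5) for control explants against 2.30 ± 1.05 (SD, n = 4) with 2-DG (difference −0.21, exact two-sided permutation p = 0.857, adjusted p = 0.857 over 3 ratios). The smallest p this test can give with 5 against 4 libraries is 0.00794.

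Rbpms encodes an RNA-binding protein that is used as a pan-ganglion cell marker in retinal sections, and it is also expressed in contractile cells of vessel walls. Rbpms (chr8:33782643-33929863, minus strand) was at 25.1, 24.1, 15.7, 55.5 and 101 CPM in the control and at 18.1, 21.0, 41.4 and 88.0 CPM in the 2-DG libraries. Control replicate 5 and 2-DG replicate 4 were highest, and these 2 libraries were among the lowest for Pou4f1, Nefm and Slc17a6. The log2 fold change was −0.07 (SE 0.61, 95% interval −1.42 to 1.28, adjusted p = 0.986). It became 0.48 without control replicate 5 and −0.72 without 2-DG replicate 4.

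Rbpms is read as several transcripts. Rbpms-203 held most of the Rbpms transcript counts in the majority of libraries, from 48.6% (2-DG replicate 4) to 74.1% (control replicate 2). The share of Rbpms-202 was 8.65%, 7.50%, 22.4%, 21.9% and 26.7% in control replicates 1 to 5 and 19.0%, 15.8%, 15.2% and 23.1% in 2-DG replicates 1 to 4. It was lowest in control replicates 1 and 2, where most other ganglion cell genes were high, and highest in control replicate 5 and 2-DG replicate 4, where Rbpms itself was highest. Rbpms-213, which has the coding end of Rbpms-203 and an additional noncoding exon of 104 bases, made up 22.5%, 10.5% and 15.4% in control replicates 1 and 2 and 2-DG replicate 3. Its share was 5.96% in 2-DG replicate 2 and at most 0.18% in the other 5 libraries. These shares are estimates that divide reads between overlapping transcripts, and this uncertainty is not part of the deposited counts.

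**Figure D2:**
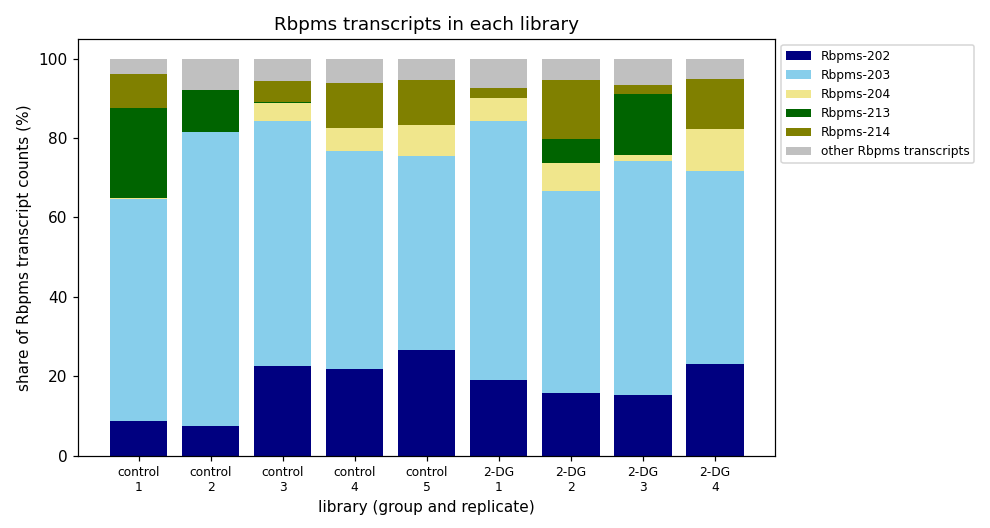
Share of Rbpms transcript counts (y axis, %) held by the 5 named transcripts and by the 10 others together in each of the 9 libraries (x axis). Rbpms-213 is visible in control replicates 1 and 2 and in 2-DG replicates 2 and 3, and Rbpms-202 is smallest in control replicates 1 and 2.

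Slc17a6 encodes VGLUT2, the transporter that loads glutamate into synaptic vesicles of ganglion cells. Slc17a6 (chr7:51622006-51671119, plus strand) was at 153, 37.1, 34.3, 6.53 and 1.81 CPM in the control and at 59.2, 14.2, 66.6 and 6.43 CPM in the 2-DG libraries. It had the widest spread of the 10 genes, 84.8-fold from control replicate 5 to control replicate 1, both of the same group. The log2 fold change was −0.35 (SE 1.06, 95% interval −2.70 to 1.99, adjusted p = 0.949) and turned to 0.88 without control replicate 1.

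The sequence before the start site is shown for those 4 of the 10 genes that were found in the RefSeq promoter table (GRCm38.p6). These 4 genes have 5 promoter entries there, so not every entry is shown. The stretches are chr14:104468000-104468249 (minus strand) for Pou4f1, chr7:51621580-51621829 (plus strand) for Slc17a6, chr8:78436648-78436897 (minus strand) for Pou4f2, and chr14:34374790-34374919 (minus strand) for Sncg. They are written from 5′ to 3′ on the strand of the gene, and capitals mark GGGCGG or its reverse complement CCGCCC.
Pou4f1: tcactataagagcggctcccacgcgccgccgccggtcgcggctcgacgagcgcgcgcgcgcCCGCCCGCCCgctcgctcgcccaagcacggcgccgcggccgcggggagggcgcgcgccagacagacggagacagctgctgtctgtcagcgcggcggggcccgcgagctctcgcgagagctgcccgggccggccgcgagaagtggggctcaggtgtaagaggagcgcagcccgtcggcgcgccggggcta
Slc17a6: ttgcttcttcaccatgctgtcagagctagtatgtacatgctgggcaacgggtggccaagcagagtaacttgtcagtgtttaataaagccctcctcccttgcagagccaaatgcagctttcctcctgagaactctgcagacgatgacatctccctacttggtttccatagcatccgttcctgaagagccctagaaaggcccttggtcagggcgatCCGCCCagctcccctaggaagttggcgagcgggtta
Pou4f2: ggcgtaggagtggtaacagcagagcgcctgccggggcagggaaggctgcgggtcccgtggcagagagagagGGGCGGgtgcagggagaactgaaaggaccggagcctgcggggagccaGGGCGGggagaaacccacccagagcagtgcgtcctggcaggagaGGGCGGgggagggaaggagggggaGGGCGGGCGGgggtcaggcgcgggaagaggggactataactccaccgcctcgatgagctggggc
Sncg: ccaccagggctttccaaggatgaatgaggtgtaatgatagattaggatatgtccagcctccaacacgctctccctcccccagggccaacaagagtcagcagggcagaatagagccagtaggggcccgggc

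Searched on both strands, GGGCGG was found 5 times for Pou4f2, 2 times for Pou4f1, 1 time for Slc17a6 and 0 times for Sncg. Neighbouring matches overlap in Pou4f1 and in Pou4f2 and there run on in capitals. Of 32851 RefSeq promoters, 32.7% held GGGCGG in their 250 bases. CANNTG, held by 66.2% of promoters, was found 2 times for Pou4f1 and 1 time for Slc17a6. The letters TATAAA (12.4% of promoters), TAATTA (4.84%) and ATAATTAAT (0.259%, which contains TAATTA) were not in these 4 windows. The window of Sncg has 130 bases and the others 250.

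Sncg and Thy1 are abundant ganglion cell markers, the former encoding gamma-synuclein and the latter a membrane glycoprotein of the neuronal surface. Sncg (chr14:34370274-34374789, minus strand) was at 36.6, 88.7, 10.2, 9.80 and 12.9 CPM in the control and at 16.4, 8.31, 52.4 and 28.1 CPM in the 2-DG libraries. The same 3 libraries as before were highest, and the log2 fold change of −0.26 (SE 0.74, 95% interval −1.89 to 1.37) became 0.60 without control replicate 2.

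Thy1 (chr9:44043384-44048579, plus strand) was at 189, 280, 59.8, 50.8 and 46.5 CPM in the control and at 89.3, 36.8, 120 and 40.0 CPM in the 2-DG libraries. All 4 2-DG libraries were below the control mean of 125 ± 105 CPM (SD, n = 5), yet 3 control libraries were lower than 2 of the 2-DG libraries. The log2 fold change was −0.81 (SE 0.61, 95% interval −2.16 to 0.55, adjusted p = 0.802), and it was negative in each of the 9 fits that left out a library, at −0.27 without control replicate 2.

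The value of Thy1 in control replicate 2 depended on how transcripts were brought together. The deposited gene value was 1.68 times the sum of its transcript counts there, against 0.84 to 1.35 times in the other 8 libraries. In this library the short noncoding transcript Thy1-203 was at 47.5 CPM, against 0.54 to 5.17 CPM elsewhere. Summing transcripts gave Thy1 values of 214, 167, 64.3, 48.3 and 34.6 CPM in the control and 96.2, 36.4, 145 and 32.5 CPM in the 2-DG libraries, and a log2 fold change of −0.45 (SE 0.63). Rbpms differed likewise, with deposited values of 0.63 to 1.49 times the transcript sum and 38.6 CPM in control replicate 2 when summed, while control replicate 5 and 2-DG replicate 4 remained highest at 74.4 and 59.6 CPM. The deposited values of Pou4f2, Pou4f3, Nefl, Nefm, Nefh, Sncg and Slc17a6 lay within 0.95 to 1.08 times the sums, and those of Pou4f1 within 0.72 to 1.34 times.

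The neurofilament triplet builds the axonal cytoskeleton from a light (Nefl), a medium (Nefm) and a heavy chain (Nefh). Nefl (chr14:68083863-68089095, plus strand) was at 303, 967, 151, 114 and 166 CPM in the control and at 172, 103, 361 and 285 CPM in the 2-DG libraries. Control replicate 2 alone was far above the rest, and the log2 fold change of −0.56 (SE 0.64, 95% interval −1.99 to 0.86, adjusted p = 0.859) became 0.32 without it.

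Nefh (chr11:4938754-4948064, minus strand) was at 45.9, 183, 37.2, 24.3 and 37.7 CPM in the control and at 41.2, 44.1, 82.7 and 30.7 CPM in the 2-DG libraries. It followed Nefl in having its highest value in control replicate 2, and its log2 fold change moved from −0.40 (SE 0.58) to 0.45 (SE 0.33, 95% interval −0.28 to 1.19) without that library.

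Nefm (chr14:68082590-68124846, minus strand) was at 168, 89.1, 95.1, 61.0 and 52.8 CPM in the control and at 70.4, 30.5, 96.0 and 20.0 CPM in the 2-DG libraries. Unlike the other chains it was not raised in control replicate 2, and the 2 lowest values were 2-DG replicates 2 and 4. The log2 fold change was −0.78 (SE 0.49, 95% interval −1.86 to 0.30, adjusted p = 0.770), it was negative in all 9 fits that left out a library (−1.21 to −0.46), and without control replicate 2 it was −0.80 (95% interval −2.01 to 0.41). Its smallest adjusted p over those 9 fits was 0.652. Nefm was the only one of the 10 genes with an unadjusted p under 0.05 in any alternative, without 2-DG replicate 3 (6.36% of all genes) and with the replicate number as a block (6.42%). The annotated span of Nefm includes Nefl on the other strand, and whether strand was used in quantification is not given in the sources used here, although the transcript without that long span, Nefm-201, held at least 99.2% of Nefm transcript counts.

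Within libraries the chains kept no fixed proportion. The log2 ratio of Nefm to Nefl was −1.50 ± 1.15 (SD, n = 5) for control explants against −2.20 ± 1.12 (SD, n = 4) with 2-DG (difference −0.69, exact two-sided permutation p = 0.365, adjusted p = 0.857 over 3 ratios). That difference was −0.14 without 2-DG replicate 4 and −1.18 without control replicate 2. The ratio was lowest in control replicate 2 (−3.44) and 2-DG replicate 4 (−3.83), against −1.91 to −0.67 in the other libraries. The log2 ratio of Nefh to Nefl was −2.30 ± 0.27 (SD, n = 5) for control explants against −2.15 ± 0.82 (SD, n = 4) with 2-DG (difference 0.15, exact two-sided permutation p = 0.714, adjusted p = 0.857).

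**Figure D3:**
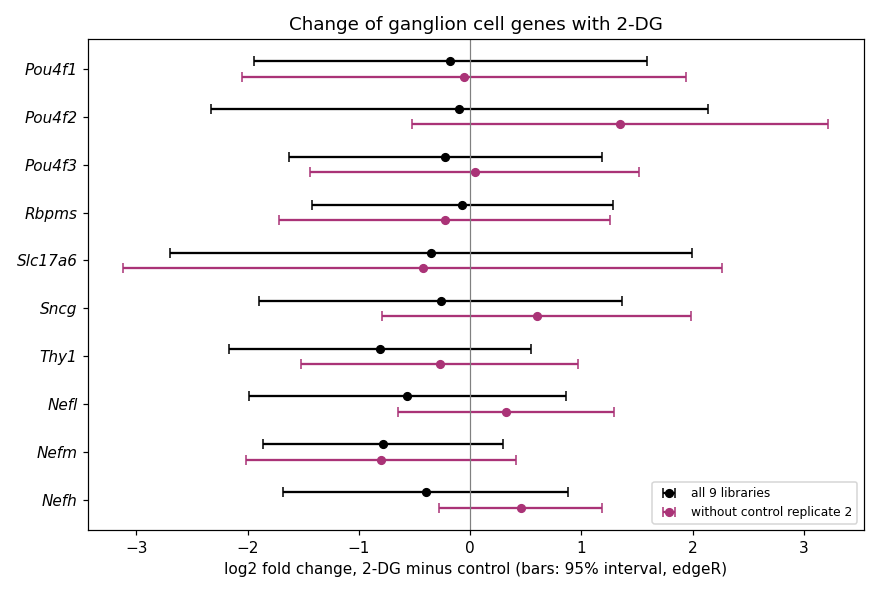
Log2 fold change of 2-DG minus control (x axis) with its 95% interval from edgeR for each ganglion cell gene (y axis), from all 9 libraries (black) and without control replicate 2 (purple). All intervals include 0, and the values of Pou4f2, Pou4f3, Sncg, Nefl and Nefh change sign when that library is left out.

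Per kilobase of annotated exon, Nefl was the most abundant of the 10 genes, at a median level of 50.8 CPM per kb over the 9 libraries. Thy1 (20.0), Sncg (19.2), Nefm (12.2), Nefh (10.3), Slc17a6 (6.35), Rbpms (3.83), Pou4f1 (1.38), Pou4f3 (0.605) and Pou4f2 (0.232 CPM per kb) followed. The length counts the exons of all transcripts of a gene. For Rbpms (6.556 kb) it includes an exon of 2534 bases of Rbpms-215, which held at most 3.36% of Rbpms transcript counts. The level and place of Rbpms depend on this length, and other lengths were not tried. Nefl was above Thy1 in 9 of 9 libraries, Rbpms above Pou4f1 in 8 and Sncg above Nefm in 8. Thy1 and Sncg (Thy1 higher in 6 libraries), Nefm and Nefh (Nefm higher in 4), Slc17a6 and Rbpms (Slc17a6 higher in 5) and Pou4f3 and Pou4f2 (Pou4f3 higher in 6) changed places between libraries and did not differ beyond their spread.

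The ganglion cell genes moved together across libraries except Rbpms. All 36 pairs among the other 9 genes had a positive Pearson's r of log2 CPM, from 0.32 to 0.97, while 7 of the 9 pairs with Rbpms were negative, down to −0.74 with Slc17a6 (exact permutation p = 0.0234, adjusted p = 0.0794). Adjustment was over all 85 relations computed between these genes and with the summed markers of other cells, and 9 of the 36 pairs had an adjusted p under 0.05. These relations pool both groups, and they were looked at with the values known.

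Nefl and Sncg were the closest pair, with r = 0.970 (exact permutation p = 2.76e-06, adjusted p = 0.000234), rho = 1.0 (adjusted p = 0.000468) and r = 0.971 without the 2 libraries farthest from the median. Pou4f2 and Sncg had r = 0.945 (exact permutation p = 0.000141, adjusted p = 0.00398), rho = 0.933 (adjusted p = 0.0106) and r = 0.912 without control replicate 2 and 2-DG replicate 3. Pou4f1 and Slc17a6 had r = 0.928 (exact permutation p = 0.00046, adjusted p = 0.00978), rho = 0.933 (adjusted p = 0.0106) and r = 0.851 without control replicate 5 and 2-DG replicate 4. The relation of Pou4f2 to Nefh (r = 0.880, exact permutation p = 0.0044, adjusted p = 0.0415, rho = 0.767, adjusted p = 0.079) rested on control replicate 2 and 2-DG replicate 3, since r was 0.279 without them. The same held for Nefh and Sncg (r = 0.797, exact permutation p = 0.00665, adjusted p = 0.0435, rho = 0.650, adjusted p = 0.162), whose r was 0.206 without these libraries.

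Rbpms followed the summed CPM of 8 vessel and pericyte markers, which was 330, 497, 529, 1092 and 2023 CPM in the control and 563, 459, 1047 and 2514 CPM in the 2-DG libraries. Control replicate 5 and 2-DG replicate 4 were highest for both. Within the list, the endothelial gene Cdh5 was at 861 and 1346 CPM in these 2 libraries against 57.6 to 474 CPM elsewhere, while the pericyte gene Pdgfrb was at 104 and 53.7 CPM against 29.6 to 83.0 CPM elsewhere. The relation had r = 0.914 (exact permutation p = 0.00129, adjusted p = 0.0182), rho = 0.683 (p = 0.0503, adjusted p = 0.147) and r = 0.749 without these 2 libraries. Slc17a6 went the other way, with r = −0.765 (exact permutation p = 0.0165, adjusted p = 0.0669) and rho = −0.667 (adjusted p = 0.161), and −0.485 without the same libraries. All 8 markers were above 0 in every library. Relations were computed with rod, bipolar, amacrine and vessel markers only, so glia were not compared. Astrocyte markers summed to 58.0, 30.6, 32.4, 62.7 and 96.6 CPM in the control libraries. In the 2-DG libraries they summed to 29.7, 60.2, 161 and 107 CPM. Müller glia markers summed to 1598, 3314, 1859, 3994 and 6342 CPM in the control and 907, 1113, 2950 and 2171 CPM in 2-DG. Whether the relation is particular to vessel cells, and the part of any cell type in the Rbpms values, was not tested.

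**Figure D4:**
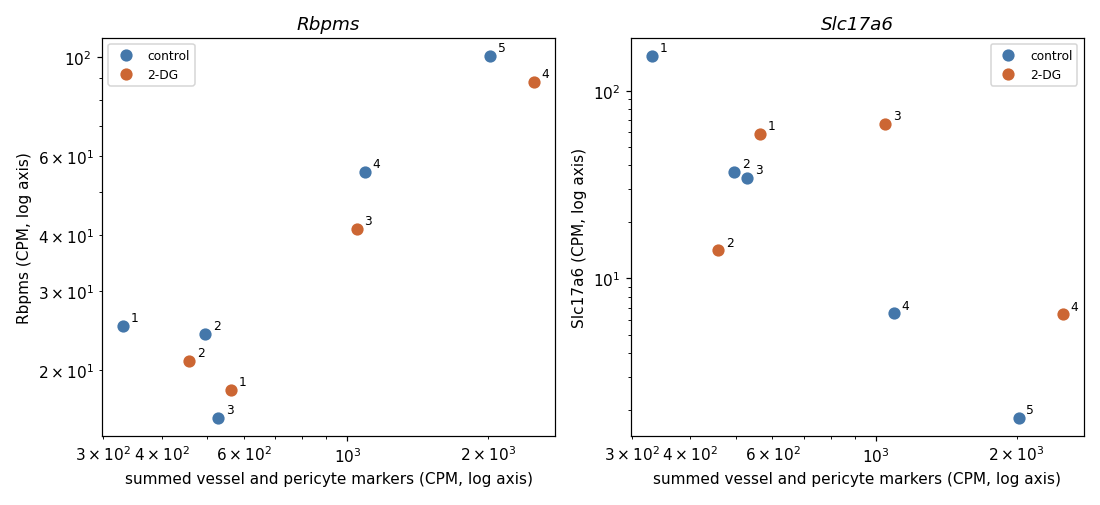
Rbpms (left) and Slc17a6 (right) in CPM (y axes, log scale) against the summed CPM of 8 vessel and pericyte markers (x axes, log scale) in 5 control (blue) and 4 2-DG (orange) libraries, numbered by replicate. Rbpms is highest in control replicate 5 and 2-DG replicate 4, where the vessel sum is highest and Slc17a6 is low.

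Other cell types also varied between libraries. The 8 bipolar cell markers summed to between 167 and 2130 CPM in control and between 348 and 3020 CPM in 2-DG libraries, lowest in control replicate 5 and 2-DG replicate 4, and Rbpms ran against this sum (r = −0.858, exact permutation p = 0.00334, adjusted p = 0.0406, rho = −0.783, adjusted p = 0.0732, and r = −0.504 without those libraries). The 8 amacrine markers summed to between 158 and 989 CPM in control and between 219 and 1001 CPM in 2-DG libraries, with Pou4f1 (r = 0.925, exact permutation p = 0.00067, adjusted p = 0.0114, rho = 0.933, adjusted p = 0.0106) and Slc17a6 (r = 0.849, exact permutation p = 0.00416, adjusted p = 0.0415, rho = 0.917, adjusted p = 0.0159) following them, and r was 0.846 and 0.666 without control replicate 5 and 2-DG replicate 4. The 10 rod markers reached 42548 CPM in control replicate 2, against 5182 to 16418 CPM elsewhere, and all 10 had a negative log2 fold change, with a median of −0.53 and 0 at an unadjusted p under 0.05. Without control replicate 2, 1 rod marker was lower and 9 were higher, with a median of 0.19, and limma-voom and the fit with the replicate number as a block each gave 6 lower and 4 higher. The 5 pigment epithelium markers were at 102 CPM in 2-DG replicate 3, against 1.27 to 15.4 CPM elsewhere, although this layer had been removed in dissection. The 8 cone markers were at 578 CPM in control replicate 2 and 811 CPM in 2-DG replicate 3, against 70.7 to 133 CPM elsewhere. Control replicate 2 and 2-DG replicate 3 were thus also the libraries highest in Pou4f2, Nefl, Nefh and Sncg, and the part of tissue composition in those values was not tested.

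**Figure D5:**
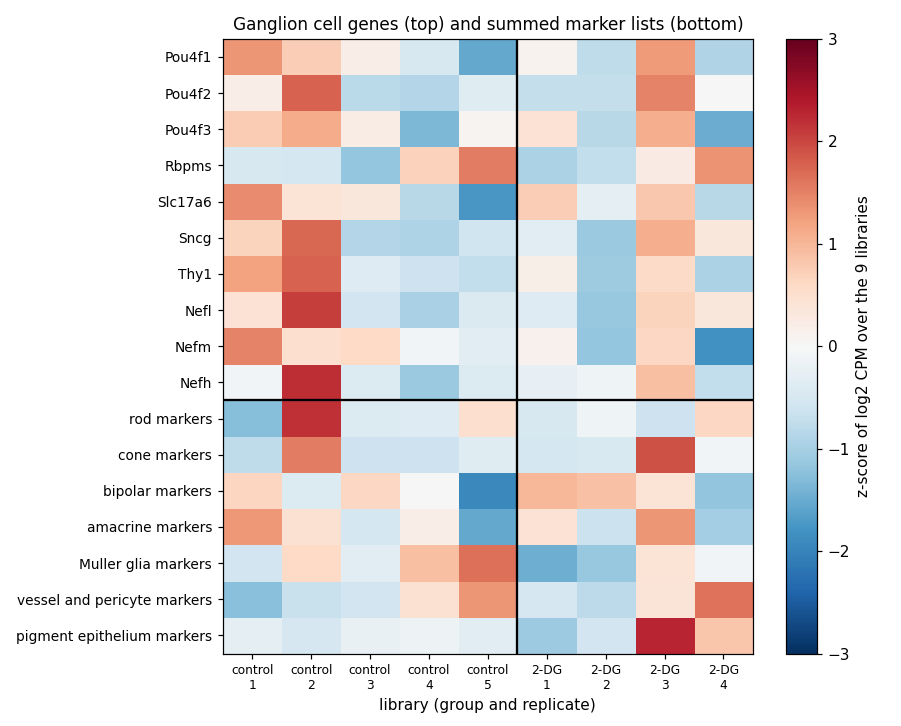
Z-score of log2 CPM over the 9 libraries (colour; red high, blue low) for the 10 ganglion cell genes (upper rows) and for the summed CPM of 7 lists of markers of other retinal cells (lower rows), with libraries in columns. The line between columns parts 5 control from 4 2-DG libraries, and Rbpms resembles the row of vessel and pericyte markers more than the other ganglion cell genes.

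A wider list held 20 genes for ganglion cell identity and axons. Their log2 fold change was negative for 7 and positive for 13 (50.8% of all genes negative), with a median of 0.11, and 0 of 20 had an unadjusted p under 0.05 (1 of 20 with library size only, 7.93% of all genes, and 1 of 20 with DESeq2, 7.14% of all genes). Without 2-DG replicate 3, 15 of the 20 were negative (52.3% of all genes). Only 4 of the 20 were negative without control replicate 1 (49.2% of all genes) or without 2-DG replicate 2 (51.1%). The most abundant were Mapt, the axonal microtubule protein tau (log2 fold change 0.12, SE 0.60), and Uchl1, a neuronal deubiquitinase (0.40, SE 0.35). The values of this list come from the whole retina and are not a measure of ganglion cells alone. The part of other cells in them was not tested. A further 16 genes mark ganglion cell subtypes. Of these 8 were lower and 8 higher, with a median of −0.02, and 0 of 16 had an unadjusted p under 0.05. With limma-voom 4 of the 16 were under 0.05, 1 lower and 3 higher, where 26% of all genes were. Jam2, which labels direction-selective cells, had a log2 fold change of −0.11 (SE 0.26), and Spp1, found in alpha ganglion cells, had 0.03 (SE 0.54).

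No gene of the response to axotomy passed the test after adjustment with edgeR or DESeq2, while limma-voom with sample quality weights called 2 of 14 (0%, 0.676% and 5.81% of all genes called). Of the 14 genes 12 had a negative and 2 a positive log2 fold change (50.8% of all genes negative), with a median of −0.58, and 3 had an unadjusted p under 0.05, all lower, where 4.83% of all genes were lower at that level. With the replicate number as a block, 2 of the 14 were under 0.05, 1 lower and 1 higher (6.42% of all genes). The median was then −0.40. Sox11, a transcription factor of axon regrowth, was at 56.7, 9.45, 40.8, 39.7 and 35.2 CPM in the control and at 23.2, 12.5, 11.7 and 13.7 CPM in the 2-DG libraries. Only control replicate 2 lay below the 2-DG libraries, and the log2 fold change of Sox11 was −1.26 (SE 0.44, 95% interval −2.24 to −0.28, adjusted p = 0.602). Sprr1a is induced in injured neurons, and its fitted change was −2.34 (log2, SE 0.94, adjusted p = 0.656), with 0.72 CPM in control replicate 2 and 47.5 to 108 CPM in the other control libraries against 3.76 to 19.8 CPM in 2-DG. Hrk, a pro-apoptotic BH3-only gene, was fitted at −1.34 (log2, SE 0.57, adjusted p = 0.673). Over the fits without 1 library each, 1 to 5 of the 14 had an unadjusted p under 0.05, with 5 without control replicate 2 (8.99% of all genes in that fit). Only 1 of 14 was left when control replicate 4 (4.63% of all genes), or either of 2-DG replicates 2 (5.1%) and 3 (6.36%), was taken out, which is near the share of all genes. Of 7 Müller glia markers, which summed to between 1598 and 6342 CPM in control and between 907 and 2950 CPM in 2-DG libraries, Sox9 (log2 fold change −2.20), Glul (−1.28) and Slc1a3 (−1.07) were lower and Vim (0.67) was higher at an unadjusted p under 0.05 (4 of 7, against 7.25% of all genes). The count was 1 of 7 without control replicate 4 (4.63% of all genes) or without 2-DG replicate 4 (12.9%), near the share of all genes in the latter, and it was 5 of 7 without 2-DG replicate 3 (6.36%), all lower, and with limma-voom (26%). With the replicate number as a block it was 2 of 7, 1 lower and 1 higher (6.42% of all genes). After adjustment edgeR called 0 of these 7 markers, DESeq2 1 (0.676% of all genes) and limma-voom with sample quality weights 3 (5.81%). Axotomy response genes are not specific to ganglion cells, and the part of glia in their values was not tested.

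Genes whose log2 CPM was among the most like the mean z-score of the 10 ganglion cell genes, among 12936 genes with a mean of at least 5 CPM, included Nrn1 (r = 0.990 over 9 libraries), Ppfia4 (0.966), Atp6v1g2 (0.965), Pcgf2 (0.958), Rmst (0.957) and Cplx1 (0.954). These r values are given as a description. None of these 6 passed the test between groups (log2 fold changes −0.39 to −0.12, smallest adjusted p 0.871).

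At the level of transcripts, 23 of the 35 transcripts of the 10 genes could be tested, 0 passed after adjustment over 62900 transcripts and 1 had an unadjusted p under 0.05 (3.45% of all transcripts). This was Thy1-203, with a log2 fold change of −2.71, which was −0.74 without control replicate 2. Without that library 21 could be tested and 0 had an unadjusted p under 0.05 (4.5% of all transcripts).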

How the data were processed

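RNA-seq of 9 explant libraries was analysed. The authors deposited estimated counts per gene and per transcript, not scaled between libraries. kallisto and GRCm38 are named in the submitters' processing notes, and how gene values were made from transcripts is not given in the sources used here. The deposited normalised signal per gene, CPM on a scaled library size, was used only for a check: it holds 8 of the 10 genes (not Pou4f2 and Pou4f3) at 0.970 to 1.11 times the CPM computed here. The deposited table of the authors' own comparison (fold changes and p-values) was not used, and 0 columns of samples were left unmapped.

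Estimated counts were rounded, filtered with filterByExpr, scaled with TMM and tested with edgeR 4.0.16 (glmQLFit, legacy=TRUE, robust=FALSE, and glmQLFTest) in R 4.3.3 with control against 2-DG as the single term over the 9 libraries, with Benjamini-Hochberg adjustment over 21049 genes and a threshold of 0.05. The same steps were applied to all transcripts. The steps were run on simulated counts. Recovery of changed genes was required there only at a dispersion (spread between libraries beyond counting error) far below the 0.265 of these data. The simulation therefore does not show how well a change would be found in data like these. limma 3.58.1 and DESeq2 1.42.0 gave alternatives, and permutation tests were run with scipy 1.17.1. A floor of 3 counts equals 0.0556 to 0.255 CPM, and it covers counting error only. No 2 libraries were identical (r of log2 CPM 0.868 to 0.977). The p-values measure the spread between these libraries, since what a biological replicate was made of is not stated.

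The genes and lists were chosen with earlier results of these data known. All 10 genes were named. From each other list described by single genes, up to 4 genes with the smallest unadjusted p under 0.05 were to be named or, where there was none, the 2 with the highest mean CPM, together with the 8 genes most like the 10. Of those 8, 2 are not reported here. Gene spans and exon lengths came from GENCODE M21. Promoters came from RefSeq on GRCm38.p6 (4 of the 10 genes matched), and transcribed bases were left out. Reads shared with near-identical genes make single values uncertain.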

Additional observations from a re-analysis of the deposited data

Results flagged for a closer look

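A sample lay far from the others of its group in 5 of the 26 groups of values looked at, each having 4 or 5 libraries. Chance would give about 1.3 at 1 in 20 if the groups were independent and their values normally distributed. The gene values were CPM without a log, and the genes moved together across libraries, so no excess over chance is shown. Pou4f2 was at 7.37 CPM in control replicate 2, a gap to the next library of 0.867 of the whole range of the group. Pou4f2 was also at 5.39 CPM in 2-DG replicate 3, with a gap of 0.88 of the range. Nefl was at 967 CPM (gap 0.778 of the range) and Nefh at 183 CPM (gap 0.865 of the range) in control replicate 2. Slc17a6 was at 153 CPM in control replicate 1, with a gap of 0.767 of the range.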

How the results depend on the processing

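The call of 0 ganglion cell genes after adjustment held in all alternatives run. Over all genes, where edgeR called 0, DESeq2 called 251, limma-voom with sample quality weights 1222 and edgeR itself 16 without control replicate 2 and 2 without 2-DG replicate 4, and 1526 genes had an unadjusted p under 0.05 in the fit as reported. Over fits without 1 library each, 5 to 10 of the 10 genes were lower in 2-DG and 0 to 1 had an unadjusted p under 0.05 (Nefm, without 2-DG replicate 3). In these fits 46.9% to 53.5% of all genes were lower, and 4.63% to 12.9% had an unadjusted p under 0.05. limma-voom gave 5 lower. Over the fits without 1 library each, 4 to 15 of the 20 identity and axon genes were lower and 0 to 1 passed the unadjusted threshold (1 with library size only or DESeq2), 5 to 10 of the 16 subtype genes were lower with 0 to 1 passing (4 with limma-voom), and 1 to 5 of the 14 axotomy genes passed (highest without control replicate 2 and lowest when control replicate 4 or either of 2-DG replicates 2 and 3 was left out). Thy1-203 was the only transcript of the 10 genes with an unadjusted p under 0.05, and 0 were left without control replicate 2. Signs turned in fits without 1 library as follows, given as the range of log2 fold changes over all 9: Rbpms −0.72 to 0.48, Pou4f1 −1.18 to 0.40, Pou4f2 −1.52 to 1.35, Pou4f3 −0.82 to 0.082, Nefl −0.87 to 0.32, Nefh −0.76 to 0.45, Sncg −0.84 to 0.60, Slc17a6 −0.82 to 0.88. With limma-voom Pou4f2 was at 0.25, Pou4f3 at 0.38, Nefh at 0.44, Sncg at 0.13 and Slc17a6 at 1.12. With 1 library left out at a time, the difference between groups (2-DG minus control) in the log2 ratio ranged from −0.16 to 0.50 for Nefh to Nefl, from −0.66 to 0.16 for Pou4f1 to Pou4f2 and from −1.18 to −0.14 for Nefm to Nefl. Alternatives chosen after seeing the data were fits without control replicate 2 and 2-DG replicate 3 (Nefl 0.025, Nefh 0.10, Sncg 0.021), without control replicate 5 and 2-DG replicate 4, and on sums of transcripts, where 10 of the 10 genes were lower in the last 2. In those 2 fits 54.9% and 50.6% of all genes were lower. With the replicate number as a block, 9 of 10 genes were lower (54.3% of all genes) and Rbpms was at 0.35. In that fit 1 of the 10 passed the unadjusted threshold (Nefm, −1.11), where 6.42% of all genes did. Of the 20 identity genes 15 were lower and 1 passed, the latter near the share of all genes. The labels do not say whether equal replicate numbers pair the samples. Deviations of same-numbered libraries correlated at 0.45, −0.15, 0.10 and 0.21, and 1 of 4 2-DG libraries correlated best with its own number. These 4 values cannot exclude a pairing, since the libraries also differed in markers of many cell types. Causes of these changes were not tested. In the lowest library Pou4f2 rested on 5.90 counts, so changes of a few counts matter there.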
